A study of Mus musculus with 11 samples.

Results

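Interferon-stimulated genes are the genes that a cell switches on when interferon reaches it, and the levels of their RNA were followed here in mouse embryonic fibroblasts (MEFs) in which p53 or the lincRNA Pint had been knocked down. The list held 41 genes in 6 roles: sensors of foreign RNA and DNA, STAT and IRF transcription factors, the ISG15 and ubiquitin system, effectors that bind or degrade RNA, interferon-inducible GTPases, and membrane and other effectors. A gene was measured where the platform annotation gave it as the only symbol of a probe set. This held for 36 of the 41 genes, over 37 of the 34760 probe sets on the array, because Irf1 had 2. Isg15, Irgm2, Igtp, Gbp2 and Ifi44 had no probe set that named them alone and were not analysed here.

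All cells were p53 LSL/LSL MEFs on a mixed C57BL/6 and 129/SvJ background, in which a Cre-expressing adenovirus (AdenoCre, multiplicity of infection of 5, for 24 h) removes a stop cassette and so restores p53. They were then transfected, and 24 h later received 150 nM doxorubicin, a DNA-damaging drug, for 12 h. The 11 arrays fell into 4 groups: control siRNA (n = 3), p53 siRNA (n = 3), control antisense oligonucleotide (control ASO, n = 2) and Pint ASO (n = 3), where the Pint ASO was a pool of oligonucleotides. Every group, controls included, carried the virus, a transfected nucleic acid and doxorubicin, so what these agents gave to all groups and what the cells had without them cannot be told apart. An effect of losing p53 likewise cannot be told apart from an effect of the p53 siRNA molecules, nor an effect of losing Pint from one of the Pint ASO molecules.

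Cells make type I interferon after their sensors meet viral or misplaced nucleic acid. Secreted interferon binds its receptor, the JAK kinases phosphorylate STAT proteins, and STAT2 and IRF9 enter a complex named ISGF3 that binds the interferon-stimulated response element (ISRE) in the promoters of its target genes. Interferon gamma acts mainly through the gamma-activated site (GAS). Many members of the list are themselves parts of this circuit, since the sensors, Stat2, Irf9 and Irf7 are induced by the signal that they help to make or to carry. In fibroblasts a low level of this signal keeps many of these genes on without infection.

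The promoter sequences of RefSeq (assembly GRCm38.p6, from 250 bases before to 50 bases after each transcript start) were searched on both strands for the ISRE as GAAA, any 2 bases and GAAA, for the GAS as TTC, any 3 bases and GAA, which reads the same on both strands, and for a kappaB site as GGG, any 2 bases and TTTCC. Windows were found for 31 of the 41 members, 37 windows in all. The ISRE was in 15 of the 37 windows (40.5%) and in 1131 of all 32851 windows (3.44%). The GAS was in 9 member windows (24.3%) beside 8.30% of all windows, and 5 of the member windows held both motifs. The kappaB letters were in 0 of the 37 windows and in 1.63% of all windows. A match in letters is a description of the window and not a bound site.

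The upstream 250 bases of 6 measured members are printed 5′ to 3′ in the direction of the gene, because their results carry the comparisons below. Capitals mark the ISRE letters in the leading 5 sequences and the GAS letters in Irf1.
Ifit1, chr19:34640639-34640888, plus strand: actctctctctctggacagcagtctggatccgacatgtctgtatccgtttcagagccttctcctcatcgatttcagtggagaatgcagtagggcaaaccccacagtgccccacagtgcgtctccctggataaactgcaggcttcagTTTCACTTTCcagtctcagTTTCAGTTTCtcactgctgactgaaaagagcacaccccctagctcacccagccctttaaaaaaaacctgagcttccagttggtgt
Ifit3, chr19:34583279-34583528, plus strand: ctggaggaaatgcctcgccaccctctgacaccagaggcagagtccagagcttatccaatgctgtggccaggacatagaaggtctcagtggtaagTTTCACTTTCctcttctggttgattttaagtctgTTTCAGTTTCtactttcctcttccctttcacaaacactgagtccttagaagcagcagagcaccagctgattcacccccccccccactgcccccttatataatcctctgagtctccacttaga
Rsad2, chr12:26456453-26456702, minus strand: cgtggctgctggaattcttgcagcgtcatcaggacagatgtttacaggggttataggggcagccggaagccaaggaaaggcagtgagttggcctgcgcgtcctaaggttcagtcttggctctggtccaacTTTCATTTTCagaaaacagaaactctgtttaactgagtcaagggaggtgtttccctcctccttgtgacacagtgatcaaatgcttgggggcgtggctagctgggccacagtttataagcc
Stat2, chr10:128270248-128270497, plus strand: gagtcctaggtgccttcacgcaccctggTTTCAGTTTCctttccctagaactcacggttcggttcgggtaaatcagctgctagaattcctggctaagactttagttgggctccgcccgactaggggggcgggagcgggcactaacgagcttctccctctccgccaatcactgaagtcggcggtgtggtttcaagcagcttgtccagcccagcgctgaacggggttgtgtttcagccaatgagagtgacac
Bst2, chr8:71537473-71537722, minus strand: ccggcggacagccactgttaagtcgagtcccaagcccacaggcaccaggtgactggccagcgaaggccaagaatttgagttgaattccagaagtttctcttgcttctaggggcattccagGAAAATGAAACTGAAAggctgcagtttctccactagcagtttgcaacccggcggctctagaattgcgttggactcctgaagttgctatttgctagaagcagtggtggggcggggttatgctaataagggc
Irf1, chr11:53769764-53770013, plus strand: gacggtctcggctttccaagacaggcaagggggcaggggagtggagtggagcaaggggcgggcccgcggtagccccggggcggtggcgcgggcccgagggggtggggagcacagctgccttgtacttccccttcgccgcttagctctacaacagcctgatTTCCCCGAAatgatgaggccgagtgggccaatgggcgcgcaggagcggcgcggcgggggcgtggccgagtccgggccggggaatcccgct
The ISRE copies of Ifit1 began 104 and 85 bases before the start, and those of its neighbour Ifit3 156 and 122 bases before it. In Bst2 the copies overlapped, beginning 130 and 124 bases upstream. Rsad2 had 1 copy at 120 and Stat2 1 copy at 222 bases, while the Irf1 window had 1 GAS at 90 bases and no ISRE letters.

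Values are log2 signals of a probe set after RMA normalization, so a difference of 1 is a doubling, and they can be compared between arrays but not between genes. Testing required a log2 signal above 6 in at least 2 arrays of 1 group, which left 26038 probe sets and all 36 measured members. A change was called at an adjusted p (limma, Benjamini-Hochberg over all 26038) under 0.05. The array medians lay between 7.31 and 7.38, and no library stood apart from its group, with correlations of 0.993 to 0.995 within groups. Lncpint, the gene of Pint, measured 10.41 and 10.23 with control ASO and 8.6, 8.48 and 8.55 with Pint ASO, a fall to 29.2% (log2 change of -1.78 ± 0.12 SE, adjusted p = 2.94e-05). With p53 siRNA it measured 9.13, 9.02 and 9.06 beside 9.43, 9.88 and 9.53 with control siRNA (adjusted p = 0.00673). Lncpint was also called higher with control ASO than with control siRNA (0.71 ± 0.12 SE, adjusted p = 0.0137), so its level differed between the controls. Trp53 itself was not analysed here. All 12 fibroblast markers passed the filter on low signals, as did 13 of 16 macrophage and blood markers, the exceptions being Ptprc, Adgre1 and Cd79a. Passing this filter does not by itself show expression: the array means over those 16 markers lay between 6.55 and 6.67, below the array medians. Not every marker was that low, since Cd68 lay at 9.35 to 10.49 and Cd14 at 7.69 to 8.48.

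With p53 siRNA, interferon-stimulated genes rose. Of the 36 members, 28 were higher than with control siRNA and 0 were lower, where 7.97% of all tested probe sets were called higher and 8.96% lower. At an unadjusted p under 0.05 the counts were 31 higher and 0 lower, beside 7393 of all 26038 probe sets in either direction. The median log2 change of the members was 0.55, and over all tested probe sets it was 0.005. The members ranged from -0.03 for Ifi35 to 1.30 for Iigp1. In 31 of the 36 members every p53 siRNA array lay above every control siRNA array, which held for 17.1% of all probe sets. RNA from bulk cultures does not tell a higher level per cell from a larger number of cells that express the genes.

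With Pint ASO the members moved less, and those called moved down. Of the 36 members 12 were lower than with control ASO and 0 were higher, where 10.7% of all probe sets were called lower and 8.49% higher. At an unadjusted p under 0.05 the counts were 14 lower and 1 higher, the latter being Trim25. Of all 26038 probe sets, 7945 reached this in either direction. The median log2 change was -0.14 beside 0.004 over all probe sets, and without control ASO array 1 it was -0.07. Single members ranged from -0.82 for Sp100 to 0.30 for Rsad2. Every Pint ASO array lay below both control ASO arrays in 16 members and above them in 2, beside 22.2% and 18.2% of all probe sets. Of the 12 calls, 7 held whichever single array was left out, and 8 calls were left without control ASO array 1.

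**Figure D1:**
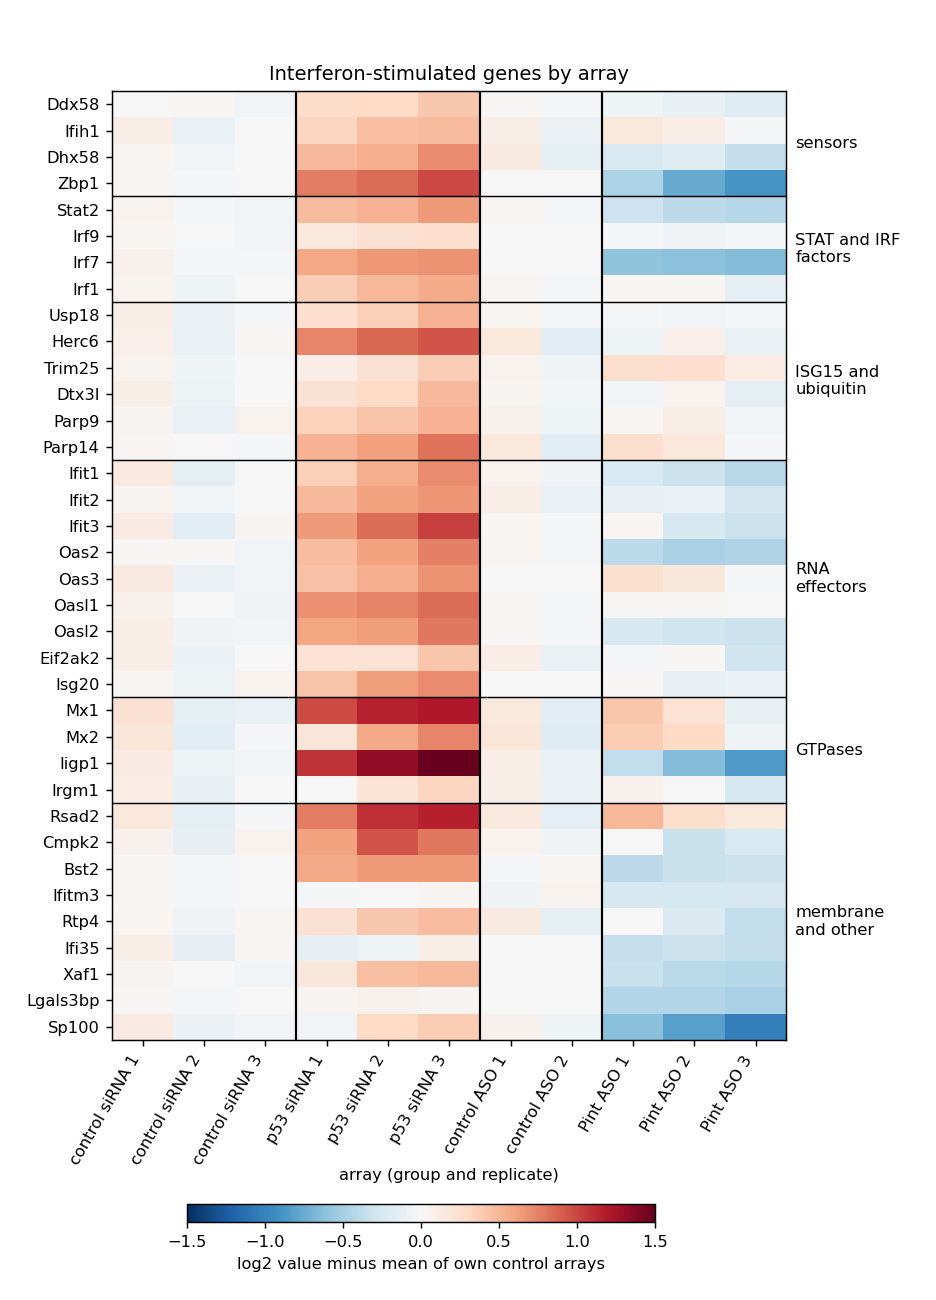
Each row is 1 of the 36 measured interferon-stimulated genes, grouped by role, and each column 1 array. Colour gives the log2 signal minus the mean of the control arrays of the same arm, red for higher and blue for lower. Red fills the p53 siRNA columns for most rows, with 28 members called higher, while blue in the Pint ASO columns is limited to some rows, with 12 called lower.

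The difference between the knockdown effects was then tested itself, as the Pint ASO effect minus the p53 siRNA effect, each against its own control. All 36 members had a negative difference, with a median of -0.68. The test called 29 of them lower and 0 higher, where 9.40% of all probe sets were called lower and 9.15% higher. At an unadjusted p under 0.05 the counts were 33 and 0, beside 7629 of all 26038 probe sets in either direction. The members with the largest differences were Iigp1 (-1.93 ± 0.20 SE, adjusted p = 0.000204), Zbp1 (-1.58 ± 0.15, adjusted p = 9.89e-05) and Irf7 (-1.26 ± 0.07, adjusted p = 6.44e-06). Of the 29 calls, 20 held whichever array was left out.

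The control groups gave a further comparison, since neither had a knockdown. They differed in the kind of control molecule and also in the arm that their titles name. An effect of the molecule therefore cannot be told apart from a difference between the experiments of the arms. Control ASO was called higher than control siRNA for 2 members, Mx1 and Rsad2, and lower for 0, where 2.29% of all probe sets were called higher and 1.73% lower. At an unadjusted p under 0.05, 15 members were higher and 0 lower, beside 4630 of all 26038 probe sets in either direction. The median was 0.13, beside -0.009 over all probe sets, and 33 of the 36 log2 changes were above 0. Both control ASO arrays lay above all control siRNA arrays in 22 members, beside 16.0% of all probe sets. They lay below them in 3, Oas2, Lgals3bp and Sp100, for which no share over all probe sets was taken. The control siRNA arrays enter this comparison and that of p53 siRNA, and the control ASO arrays enter this one and that of Pint ASO, so these comparisons share samples.

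By the mean over the 36 members, the control siRNA arrays lay at 10.49, 10.35 and 10.41 and the p53 siRNA arrays at 10.81, 10.95 and 11.05. The control ASO arrays lay at 10.67 and 10.56, and the Pint ASO arrays at 10.52, 10.45 and 10.34. The p53 siRNA arrays were thus above all others, the Pint ASO arrays were below both control ASO arrays, and the Pint ASO range overlapped that of control siRNA.

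Members also moved together between arrays of the same group. Array 1 of control siRNA was the highest of its group for 33 of the 36 members. With p53 siRNA, array 3 was the highest for 33 members and array 1 the lowest for 34. Array 1 was the higher of the control ASO arrays for 29 members, and with Pint ASO array 3 was the lowest for 29. The SD between arrays of a group had a median over members of 0.07 with control siRNA, 0.11 with p53 siRNA, 0.06 with control ASO and 0.09 with Pint ASO. A count of called members is for this reason not a count of independent observations.

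Markers of cell types were read on the same arrays. The mean of 12 fibroblast markers was 12.09 to 12.12 with control siRNA and 12.42 to 12.45 with p53 siRNA, and 11.97 to 11.98 with control ASO and 11.44 to 11.49 with Pint ASO. Of these 12 markers, 8 were called higher with p53 siRNA and 10 lower with Pint ASO (66.7% and 83.3%), beside 7.97% and 10.7% of all probe sets. The largest rise was in Col3a1, a collagen (0.67), and the largest fall in Lum, a matrix proteoglycan (-1.08). With the knockdowns fibroblast markers therefore moved in the same directions as the interferon-stimulated genes. In control ASO against control siRNA, 11 of the 12 had log2 changes below 0 (median -0.15), while 33 of the 36 members were above 0. The part of the fibroblast markers in the result was not tested. The mean of 16 macrophage and blood markers lay between 6.55 and 6.67 in all groups, with 1 marker, Mpeg1, called higher with p53 siRNA (0.60) and 2 lower, Cd68 (-1.04) and Cd14 (-0.51). With Pint ASO, 1 of them was called, Cd68, which was lower (-0.47). The mean of 6 endothelial markers was 6.86 to 6.94 with control ASO and 7.08 to 7.17 with Pint ASO, where Kdr was called higher (0.77) and Tek lower (-0.17). Of the 5 tested epithelial markers, Cdh1 was called lower with Pint ASO (-0.68) and Krt18 lower with p53 siRNA (-0.20), and of the 4 tested plasmacytoid and dendritic markers Tcf4 was called lower with Pint ASO (-0.37). The part of these markers in the results was not tested either.

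**Figure D2:**
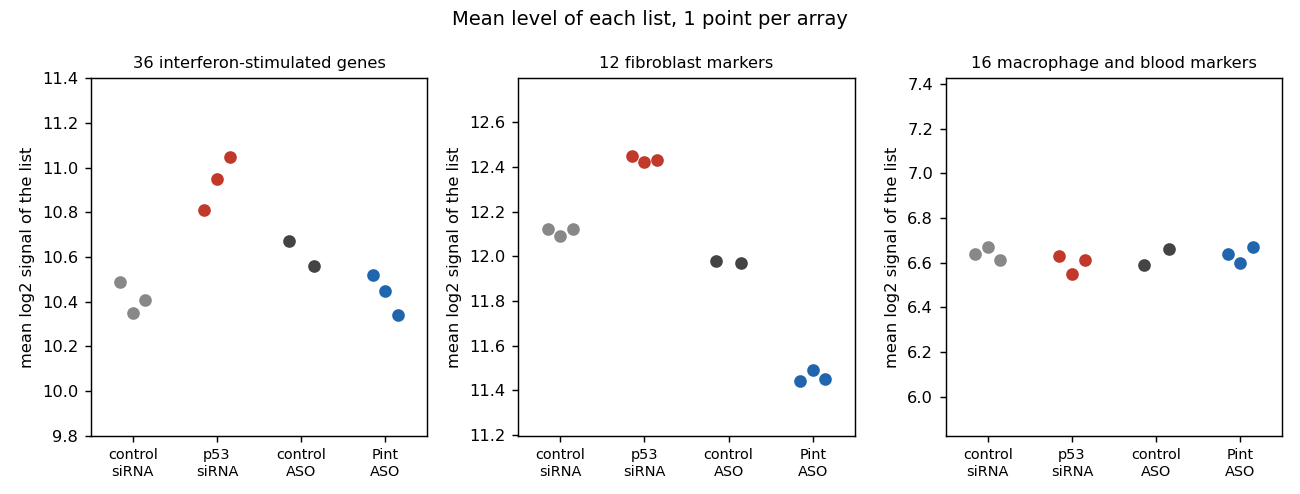
Each point is 1 array and gives the mean log2 signal of a list of genes, with a vertical range of the same width in each panel. The interferon-stimulated genes and the fibroblast markers are highest with p53 siRNA (10.81 to 11.05 and 12.42 to 12.45), and the macrophage and blood markers stay between 6.55 and 6.67.

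Sensors start the response. All 4 measured sensors rose with p53 siRNA, and 1 of them, Zbp1, fell with Pint ASO. Zbp1, which senses nucleic acid in the Z form and can trigger cell death, measured 10.38, 10.33 and 10.37 with control siRNA, 11.13, 11.2 and 11.35 with p53 siRNA, 10.53 and 10.51 with control ASO and 10.04, 9.76 and 9.63 with Pint ASO. Neither knockdown overlapped its control. Its log2 change was 0.86 ± 0.10 SE with p53 siRNA (adjusted p = 0.000268) and -0.71 ± 0.11 with Pint ASO (adjusted p = 0.00191). Ifih1, the sensor MDA5 for long double-stranded RNA, measured 10.56, 10.36 and 10.46 with control siRNA and 10.78, 10.91 and 10.94 with p53 siRNA, so that all arrays rose above the controls (0.41 ± 0.08 SE, adjusted p = 0.00496). With control ASO it measured 10.78 and 10.61 and with Pint ASO 10.85, 10.79 and 10.67, which overlapped (0.08 ± 0.09, adjusted p = 0.612). Dhx58, the regulator LGP2 of these sensors, and Ddx58, the sensor RIG-I, rose by 0.58 and 0.32 with p53 siRNA. Their log2 changes with Pint ASO were -0.26 and -0.12 (adjusted p = 0.0928 and 0.197).

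The transcription factors carry the signal to the promoters. All 4 rose with p53 siRNA, and Stat2 and Irf7 fell with Pint ASO. Irf7, the factor that drives production of interferon alpha, measured 11.08, 10.99 and 10.99 with control siRNA and 11.6, 11.67 and 11.69 with p53 siRNA. It measured 11.21 on both control ASO arrays and 10.61, 10.59 and 10.56 with Pint ASO. The knockdown arrays lay clear of their controls on both sides, with log2 changes of 0.63 ± 0.04 SE (adjusted p = 1.59e-05) and -0.62 ± 0.05 (adjusted p = 6.08e-05). Stat2, the subunit of ISGF3 that activates transcription, measured 11.26, 11.19 and 11.17 with control siRNA and 11.68, 11.73 and 11.85 with p53 siRNA (0.55 ± 0.06, adjusted p = 0.000162). With control ASO it measured 11.26 and 11.2, above the 10.92, 10.84 and 10.8 of Pint ASO (-0.37 ± 0.06, adjusted p = 0.00328). Irf9, the DNA-binding subunit of ISGF3, rose by 0.21 ± 0.04 with p53 siRNA (adjusted p = 0.00824), and with Pint ASO its change was -0.04 (adjusted p = 0.67). Irf1, a target of the GAS pathway whose site is printed above, rose by 0.47 ± 0.07 with p53 siRNA (adjusted p = 0.00103) and changed by -0.03 with Pint ASO (adjusted p = 0.86). A further, weaker Irf1 probe set gave 0.12 (adjusted p = 0.565) and 0.16 (adjusted p = 0.475).

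The ISG15 and ubiquitin system tags proteins in the responding cell. Of its 6 measured members, 5 rose with p53 siRNA and 0 were called with Pint ASO. Herc6, the main ISG15 ligase of the mouse, measured 9.39, 9.21 and 9.34 with control siRNA and 10.05, 10.17 and 10.26 with p53 siRNA (0.85 ± 0.09 SE, adjusted p = 0.000244). On the other arm it measured 9.61 and 9.3 with control ASO and 9.38, 9.53 and 9.35 with Pint ASO, inside the control range. Parp14, an ADP-ribosyltransferase, measured 9.79, 9.77 and 9.73 with control siRNA, 10.29, 10.38 and 10.58 with p53 siRNA, 10.33 and 10.02 with control ASO and 10.43, 10.33 and 10.16 with Pint ASO. Its rise with p53 siRNA was 0.66 ± 0.10 (adjusted p = 0.0018), and both control ASO arrays also lay above control siRNA (0.42 ± 0.11, adjusted p = 0.0817). Trim25, a ubiquitin ligase that acts on RIG-I, measured 10.13, 10.01 and 10.08 with control siRNA, 10.17, 10.3 and 10.44 with p53 siRNA, 10.23 and 10.12 with control ASO and 10.44, 10.43 and 10.29 with Pint ASO. Both knockdowns lay above their controls, by 0.23 (adjusted p = 0.0738) and 0.21 (adjusted p = 0.128), and neither was called. Usp18, which removes ISG15 and restrains the receptor, rose by 0.37 with p53 siRNA. Dtx3l and Parp9, partners in a ubiquitin ligase complex, rose by 0.33 and 0.43. The call for Dtx3l was lost without control siRNA array 2 (adjusted p = 0.0724), control siRNA array 3 (0.0609) or p53 siRNA array 3 (0.0651).

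Effectors that bind or degrade RNA act against viral RNA and its translation. Of 9 measured, 8 rose with p53 siRNA and 2, Oas2 and Oasl2, fell with Pint ASO. Ifit3, a partner of Ifit1 in binding foreign RNA caps, measured 11.57, 11.28 and 11.49 with control siRNA and 12.08, 12.29 and 12.47 with p53 siRNA (0.83 ± 0.12 SE, adjusted p = 0.00121). It measured 11.92 and 11.87 with control ASO, and the Pint ASO arrays at 11.92, 11.66 and 11.57 overlapped these (-0.18 ± 0.14, adjusted p = 0.435). Ifit1 and Ifit2, its neighbours in the same cluster, rose by 0.54 and 0.58 with p53 siRNA, and for Ifit1 every Pint ASO array was below control ASO without a call (-0.33, adjusted p = 0.0792). Oas2, an oligoadenylate synthetase that switches on RNase L, measured 9.79, 9.79 and 9.73 with control siRNA and 10.23, 10.37 and 10.52 with p53 siRNA (0.61 ± 0.07, adjusted p = 0.000306). With control ASO it measured 9.71 and 9.65, and with Pint ASO 9.29, 9.19 and 9.23 (-0.44 ± 0.08, adjusted p = 0.00416). No array of either knockdown overlapped its control. Oasl2, a synthetase-like antiviral protein, measured 12.28, 12.13 and 12.14 with control siRNA and 12.77, 12.81 and 12.97 with p53 siRNA (0.66 ± 0.06, adjusted p = 9.65e-05). It measured 12.5 and 12.46 with control ASO and 12.24, 12.18 and 12.16 with Pint ASO (-0.29 ± 0.07, adjusted p = 0.0204), a call that ended on removal of either control ASO array (adjusted p = 0.105 without array 1 and 0.0695 without array 2) or of Pint ASO array 3 (0.0559). The other synthetase genes of the list were not called with Pint ASO. Oasl1 and Oas3 rose by 0.75 and 0.56 with p53 siRNA, and their log2 changes with Pint ASO were 0.01 (adjusted p = 0.964) and 0.13 (adjusted p = 0.415). Isg20, an exonuclease, rose by 0.59 with p53 siRNA. Eif2ak2, the kinase PKR that halts translation, changed by 0.28 with p53 siRNA (adjusted p = 0.0925) and by -0.10 with Pint ASO (adjusted p = 0.625). Probe sets of such families can take up RNA of a close relative, and how far they did was not tested.

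The interferon-inducible GTPases act on viral particles and on the vacuoles of parasites. Of 4 measured, Mx1 and Iigp1 rose with p53 siRNA and Iigp1 fell with Pint ASO. Iigp1, a GTPase that attacks the parasite vacuole, measured 8.59, 8.39 and 8.43 with control siRNA and 9.55, 9.8 and 9.98 with p53 siRNA, a 2.47-fold difference (log2 1.30 ± 0.14 SE, adjusted p = 0.000162). It measured 8.97 and 8.78 with control ASO and 8.5, 8.22 and 8.03 with Pint ASO (-0.62 ± 0.15, adjusted p = 0.0192). The latter call ended on removal of control ASO array 1 (adjusted p = 0.128) or, less far, of Pint ASO array 3 (0.0524). Mx1, an antiviral GTPase of the nucleus that many laboratory strains carry in a defective form, measured 7.44, 7.08 and 7.11 with control siRNA and 8.19, 8.36 and 8.41 with p53 siRNA (1.11 ± 0.15, adjusted p = 0.000771). On the other arm it measured 8.28 and 7.96 with control ASO and 8.54, 8.34 and 8.01 with Pint ASO, all above the control siRNA arrays and overlapping the p53 siRNA range. Control ASO was above control siRNA by 0.91 ± 0.17 (adjusted p = 0.0196), a call lost without control siRNA array 2 (adjusted p = 0.0619), control siRNA array 3 (0.0721) or control ASO array 1 (0.142). Mx2, its cytoplasmic relative, changed by 0.49 with p53 siRNA (adjusted p = 0.089) and was 0.61 higher with control ASO than with control siRNA (adjusted p = 0.128). Irgm1, a regulator of the parasite-directed GTPases, changed by 0.18 with p53 siRNA (adjusted p = 0.328) and -0.06 with Pint ASO (adjusted p = 0.813).

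Membrane and other effectors held 6 of the 12 falls with Pint ASO, among 9 measured genes of which 5 rose with p53 siRNA. Rsad2, the antiviral enzyme viperin, measured 9.41, 9.1 and 9.23 with control siRNA and 10.01, 10.34 and 10.41 with p53 siRNA (1.01 ± 0.14 SE, adjusted p = 0.000794). It followed Mx1 on the other arm, with 10.28 and 9.99 on control ASO arrays and 10.63, 10.4 and 10.29 on Pint ASO arrays, the latter above both controls by a small margin (0.30 ± 0.15, adjusted p = 0.223). The control groups differed by 0.89 ± 0.15 (adjusted p = 0.0147), a call lost without control siRNA array 3 (adjusted p = 0.0537) or control ASO array 1 (0.114). Cmpk2, a nucleotide kinase whose gene neighbours Rsad2, rose by 0.77 with p53 siRNA (adjusted p = 0.000927).

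Sp100, a component of nuclear bodies, measured 8.47, 8.26 and 8.3 with control siRNA and 8.3, 8.64 and 8.72 with p53 siRNA, which overlapped (0.21 ± 0.13 SE, adjusted p = 0.334). It measured 8.16 and 8.02 with control ASO and 7.46, 7.28 and 7.07 with Pint ASO, a fall to a 0.567-fold level (-0.82 ± 0.14, adjusted p = 0.00379). Lgals3bp, a secreted glycoprotein, measured 13.57 and 13.59 with control ASO and 13.14, 13.14 and 13.09 with Pint ASO (-0.46 ± 0.04, adjusted p = 0.000135), and its change with p53 siRNA was 0.05 (adjusted p = 0.421). Ifitm3, which blocks viral entry at endosomes, and Ifi35, an interferon-induced partner of the protein Nmi, likewise fell with Pint ASO, by 0.25 and by 0.34 on the log2 scale, and changed by 0.01 and -0.03 with p53 siRNA (adjusted p = 0.881 and 0.796). The fall of Ifitm3 lost its call without control ASO array 2 (adjusted p = 0.0532), and that of Ifi35 without control ASO array 1 (0.0582) or 2 (0.0701).

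Bst2, the membrane protein tetherin that holds budding virus, measured 11.24, 11.19 and 11.22 with control siRNA, 11.78, 11.86 and 11.86 with p53 siRNA, 11.26 and 11.31 with control ASO and 10.89, 10.95 and 10.96 with Pint ASO. Both knockdowns were clear of their controls, at 0.62 ± 0.04 SE (adjusted p = 1.69e-05) and -0.35 ± 0.05 (adjusted p = 0.00118). Xaf1, a promoter of apoptosis, measured 10.58, 10.53 and 10.49 with control siRNA, 10.7, 10.99 and 11.02 with p53 siRNA, 10.61 and 10.62 with control ASO and 10.28, 10.21 and 10.19 with Pint ASO. Its changes were 0.37 ± 0.08 (adjusted p = 0.011) and -0.39 ± 0.09 (adjusted p = 0.0137), the latter lost without control ASO array 1 (adjusted p = 0.064) or 2 (0.0689). Rtp4, a chaperone of receptors, rose by 0.37 with p53 siRNA (adjusted p = 0.0413). The call was lost without control siRNA array 1 (adjusted p = 0.0899), 2 (0.114) or 3 (0.0891) and without p53 siRNA array 2 (0.113) or 3 (0.135). It was also lost without Pint ASO array 2 (0.058), which enters through the shared spread.

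**Figure D3:**
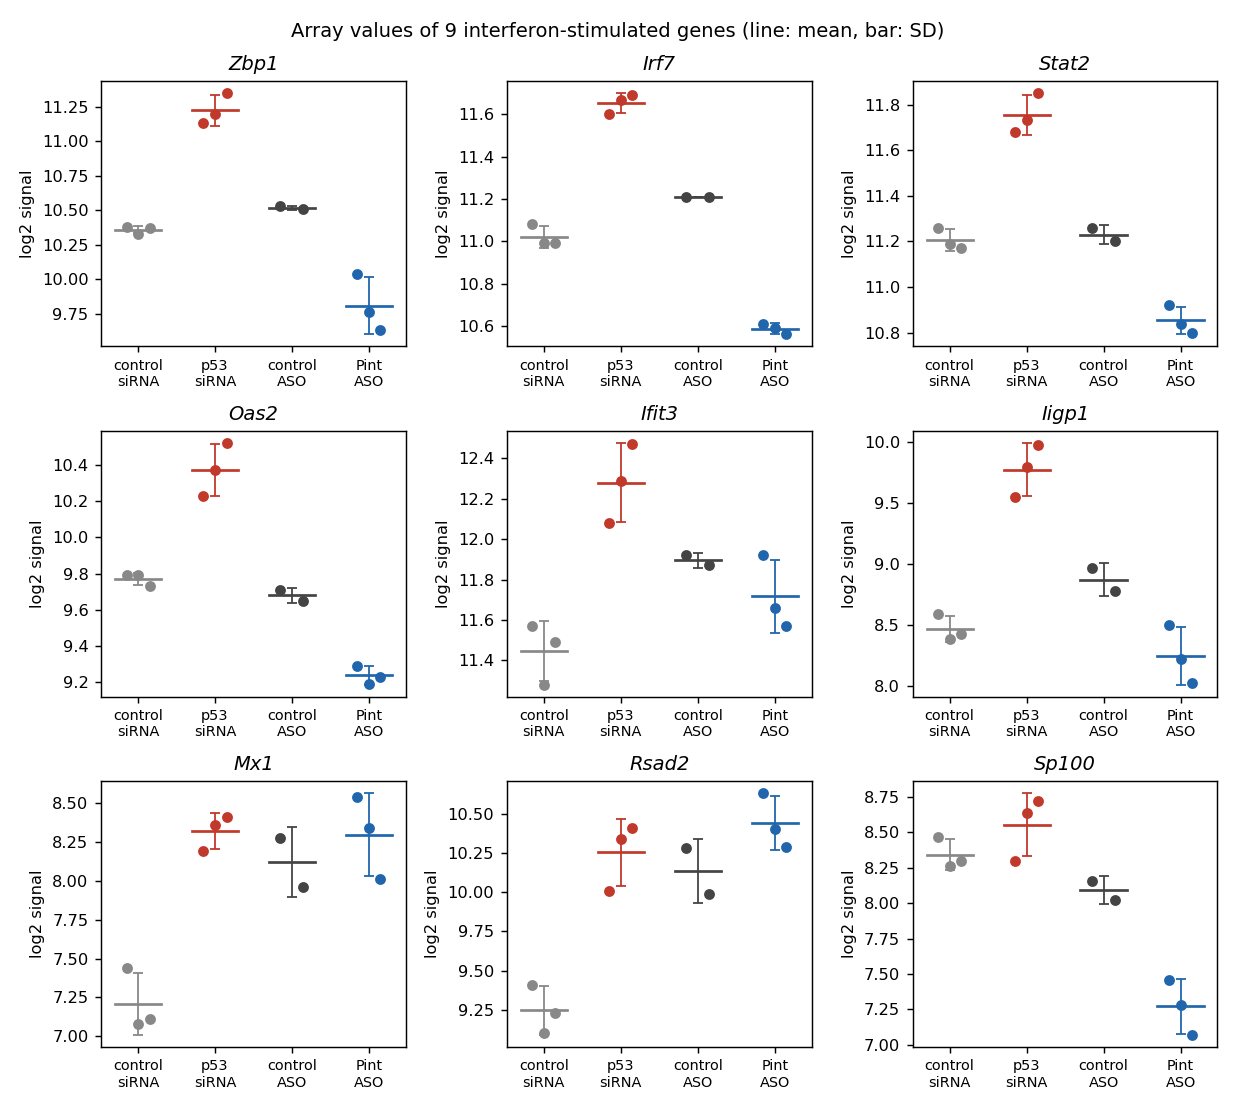
Panels give the log2 signal of 9 members on each of the 11 arrays by group, with a line at the group mean and a bar of 1 SD. In Zbp1, Irf7, Stat2, Oas2 and Iigp1 p53 siRNA lies above and Pint ASO below its own control, and in Ifit3 only p53 siRNA is clear of its control. Both control ASO arrays lie above all control siRNA arrays in Zbp1, Irf7, Ifit3, Iigp1, Mx1 and Rsad2, a difference called only in Mx1 and Rsad2. In Oas2 and Sp100 the control ASO arrays lie below all control siRNA arrays, without a call. In Sp100 the Pint ASO arrays alone (7.07 to 7.46) are clear of their control.

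The members thus fell into 4 patterns by the calls of the knockdowns, which share no arrays. Zbp1, Stat2, Irf7, Oas2, Oasl2, Iigp1, Bst2 and Xaf1 were higher with p53 siRNA and lower with Pint ASO. These 8 were 22.2% of the members, and 2.35% of all tested probe sets had this pair of calls. In 20 members (55.6%) p53 siRNA was called higher and Pint ASO was not called, and for 18 of these the difference between the effects was called. Ifitm3, Ifi35, Lgals3bp and Sp100 were lower with Pint ASO without a call for p53 siRNA, and the difference was called for 3 of them. Trim25, Eif2ak2, Mx2 and Irgm1 were called with neither knockdown. Across the 36 genes the p53 and Pint effects had a Pearson correlation of 0.04 and a Spearman correlation of 0.05, given as a description over genes that share the same arrays.

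**Figure D4:**
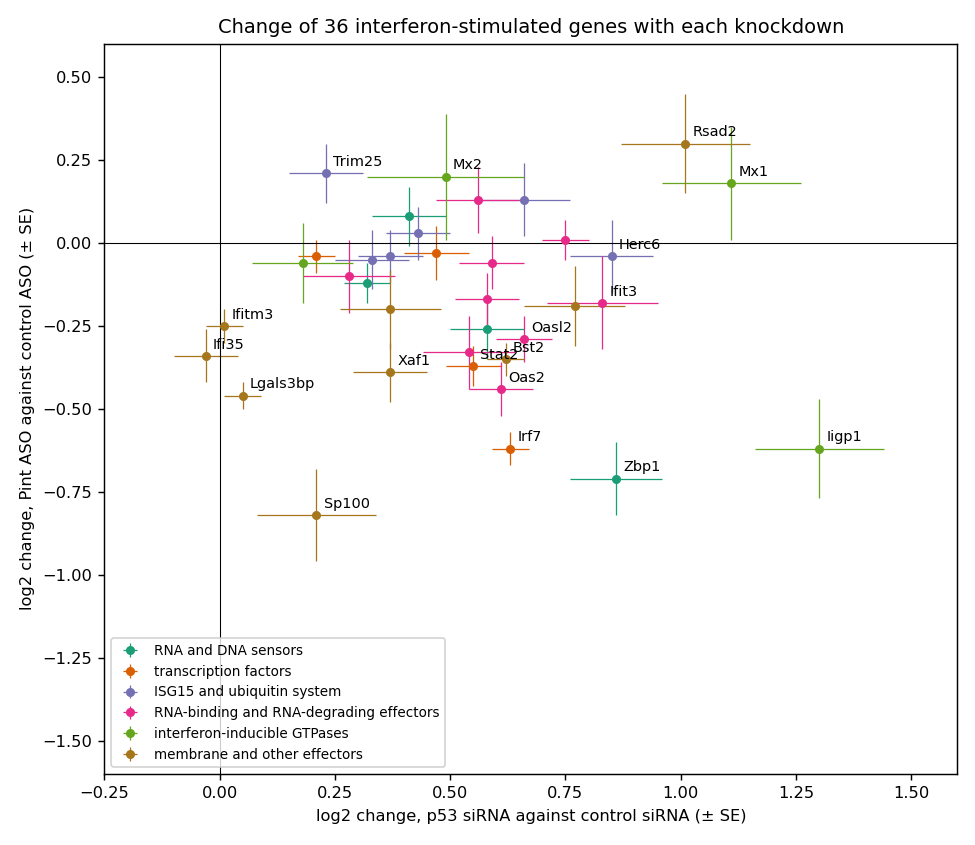
Each point is 1 of the 36 members, coloured by role, with its log2 change with p53 siRNA on the horizontal axis and with Pint ASO on the vertical axis, and bars of 1 SE. Nearly all points lie to the right of 0, while on the vertical axis they spread from -0.82 (Sp100) to 0.30 (Rsad2).

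The ISRE letters were set beside these responses. Of the measured members with a promoter window, 11 had an ISRE match, and 8 of them rose with p53 siRNA (median log2 change 0.54) while 3 fell with Pint ASO. In the other 15 members, 11 rose with p53 siRNA (median 0.47) and 6 fell with Pint ASO. Members that fell with Pint ASO thus included Stat2, Bst2 and Ifitm3, which have the letters, and Irf7, Lgals3bp and Sp100, which lack them in this window.

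Genes upstream of the members were read from a list of interferons, receptors, kinases, adaptors and negative regulators. Of the interferon genes, Ifnb1 was not tested, with log2 signals of 5.51 to 6.09 over the 11 arrays, and the 5 that passed the filter on low signals had log2 changes between -0.05 and 0.07 with p53 siRNA and between -0.07 and 0.22 with Pint ASO, none called by limma (at an unadjusted p under 0.05, 0 and 1). Among 8 receptors and kinases, 2 rose and 1 fell with p53 siRNA, and 4 fell with Pint ASO, where all 8 log2 changes were below 0. Ifnar1, a chain of the type I interferon receptor, measured 10.63 and 10.51 with control ASO and 10.14, 10.24 and 9.93 with Pint ASO (-0.47, adjusted p = 0.00536), and changed by 0.11 with p53 siRNA (adjusted p = 0.414). Ifnar2, the other chain, measured 11.68 and 11.69 with control ASO and 11.32, 11.31 and 11.09 with Pint ASO (-0.44, adjusted p = 0.00238), and rose by 0.22 with p53 siRNA (adjusted p = 0.045).

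Among 11 adaptors and factors that induce interferon, 1 rose and 2 fell with p53 siRNA (9.09% and 18.2%), and 1 rose and 3 fell with Pint ASO (9.09% and 27.3%). Of all probe sets, 7.97% were called higher and 8.96% lower with p53 siRNA, and 8.49% higher and 10.7% lower with Pint ASO. Several counts in these short lists lie near those shares. Ikbke, a kinase that phosphorylates IRF3 and IRF7, fell with both knockdowns, from 10.79, 10.89 and 10.76 to 10.15, 10.19 and 10.2 with p53 siRNA (-0.63, adjusted p = 2.66e-05) and from 10.83 and 10.78 to 10.35, 10.41 and 10.31 with Pint ASO (-0.45, adjusted p = 0.000553). Tbk1, its close relative, rose with Pint ASO (0.25, adjusted p = 0.0381). Of 10 negative regulators, 2 rose with p53 siRNA (20.0%), and 1 rose and 1 fell with Pint ASO (10.0% each, near the shares of all probe sets). Socs1 and Socs3, feedback inhibitors of the JAK kinases that were chosen after their values were seen, were the ones that rose with p53 siRNA, by 0.34 and 0.43, and Socs3 fell by 0.22 on the log2 scale with Pint ASO.

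**Figure D5:**
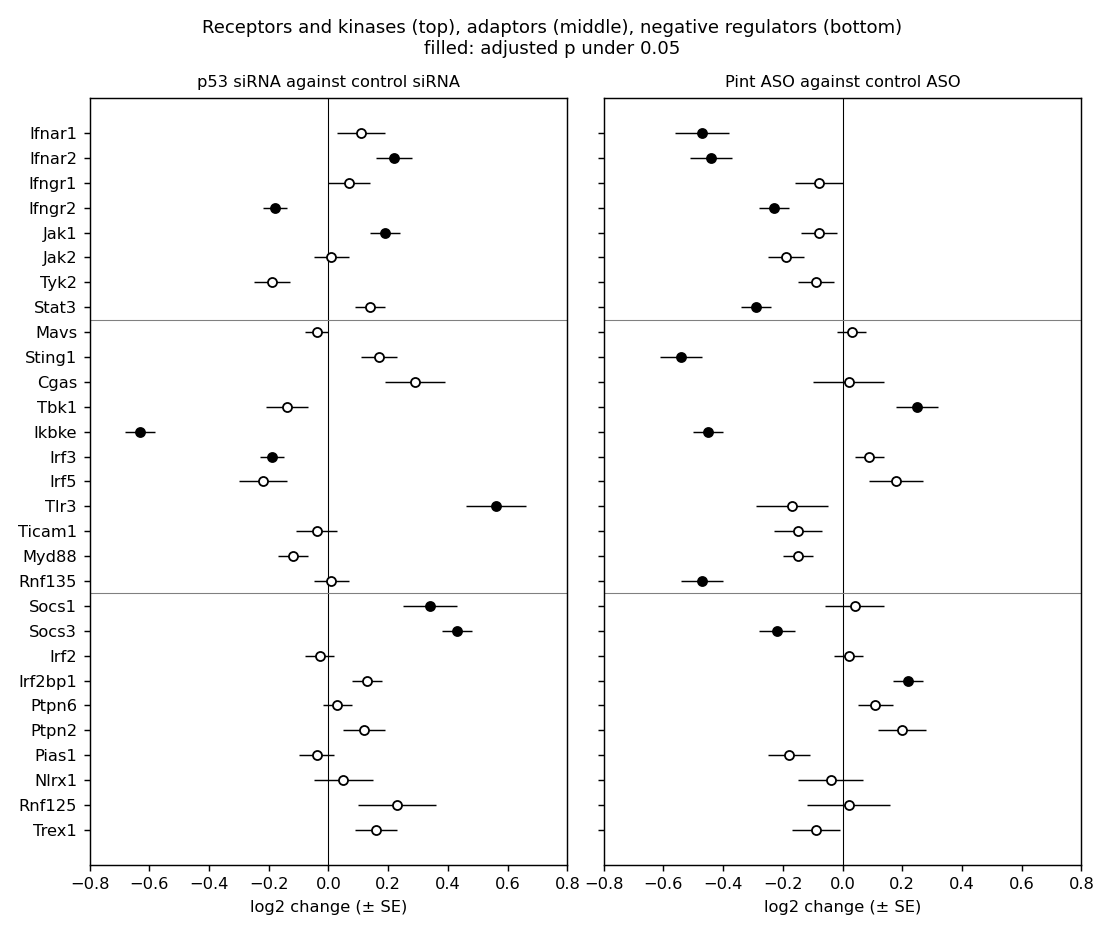
Each row is a receptor, kinase, adaptor or negative regulator of the pathway, with its log2 change and a bar of 1 SE for each knockdown. Filled points have an adjusted p under 0.05, among them Ikbke at -0.63 and -0.45, and Ifnar1 and Ifnar2 at -0.47 and -0.44 with Pint ASO.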

How the data were processed

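RNA of 11 MEF samples was hybridized to Affymetrix mouse gene arrays (300 ng of RNA each). Per the labels, the authors processed the scans with RMA, and the deposited values are log2 signals after background correction, normalization between arrays and summary per probe set. The number of arrays limits the precision, and the labels do not say that replicates are separate cultures, so a p-value covers only the spread of these samples, which may be technical. Probe sets were named from the platform annotation, with symbols updated through the gene ID: 21640 had 1 symbol, 1321 several and 11799 none here. For a gene with several probe sets, the one with the highest mean was used. Group means over all 11 arrays were fitted in 1 model with limma 3.58.1 (R 4.3.3, eBayes without trend), with Benjamini-Hochberg adjustment over 26038 probe sets. The fit was tested on simulated data. Alternatives changed the filter, normalization, variance prior, arrays, probe sets, replicate block and the call (B statistic over 3, as in the methods). Array values are given for the member with the largest change in each role and comparison, and for those called in opposite directions by the knockdowns. Of the other pathway genes, up to 3 called per direction and comparison are named, with Ifnar1, Ifnar2 and Ifnb1. Other members are given by their fitted changes, and the array values of Lgals3bp were added after they were seen. The members and lists were chosen with earlier results of these data known.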

Additional observations from a re-analysis of the deposited data

Results flagged for a closer look

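The Pint ASO effect differed from the p53 siRNA effect, each against its own control, in 29 of the 36 members, by limma's test of the difference at an adjusted p under 0.05. Every difference was negative, so that the change with Pint ASO lay below the change with p53 siRNA. Among the sensors the log2 differences were -0.44 for Ddx58, -0.84 for Dhx58 and -1.58 for Zbp1. The transcription factors gave -0.92 for Stat2, -0.25 for Irf9, -1.26 for Irf7 and -0.50 for Irf1. The weaker Irf1 probe set gave 0.04 (adjusted p = 0.925). The Irf1 call was lost with the mean of its probe sets or with a replicate block by title number. In the ISG15 and ubiquitin system they were -0.41 for Usp18, -0.89 for Herc6, -0.41 for Parp9 and -0.53 for Parp14. The RNA effectors gave -0.87 for Ifit1, -0.75 for Ifit2, -1.01 for Ifit3, -1.05 for Oas2, -0.42 for Oas3, -0.75 for Oasl1, -0.95 for Oasl2 and -0.65 for Isg20. The GTPases gave -0.93 for Mx1 and -1.93 for Iigp1. Membrane and other effectors gave -0.71 for Rsad2, -0.96 for Cmpk2, -0.96 for Bst2, -0.26 for Ifitm3, -0.57 for Rtp4, -0.76 for Xaf1, -0.51 for Lgals3bp and -1.03 for Sp100.

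For 9 of these genes the call rested on single arrays. The call for Mx1 was lost without control ASO array 1 (adjusted p = 0.0751), that for Parp9 without p53 siRNA array 3 (0.0517) or control ASO array 1 (0.0867), and that for Ifitm3 without p53 siRNA array 3 (0.0533) or control ASO array 2 (0.0821). On the control siRNA side, removing array 2 ended the calls of Irf9, Usp18, Parp14, Oas3, Rsad2 and Rtp4, and removing array 3 the same 6. Removing array 1 there ended those of Parp14 and Rtp4. Of the p53 siRNA group, array 2 ended the calls of these same 6 genes and array 3 those of Irf9, Parp14, Oas3, Rsad2 and Rtp4. Array 1 of the control ASO group ended the calls of all 6, and array 2 those of Irf9, Usp18 and Oas3. For Pint ASO, array 1 ended that of Usp18, array 2 those of all 6, and array 3 those of Parp14, Oas3, Rsad2 and Rtp4. The adjusted p on such a removal ran from 0.0515 to 0.0736 for Irf9, from 0.0502 to 0.0848 for Usp18, from 0.0666 to 0.148 for Parp14, from 0.0732 to 0.121 for Oas3, from 0.0803 to 0.149 for Rsad2 and from 0.0595 to 0.127 for Rtp4.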

How the results depend on the processing

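No called direction reversed in any setting. Of 28 calls with p53 siRNA, 23 held in every setting run other than the B statistic, of 12 with Pint ASO 3 (Zbp1, Irf7 and Lgals3bp), of 2 between the controls 0, and of 29 differences 15. Leaving out each array in turn gave 26 to 30 members called with p53 siRNA, 8 to 12 with Pint ASO, 0 to 3 between the controls and 21 to 30 for the difference, with medians of 0.48 to 0.62, -0.20 to -0.07 and 0.09 to 0.17. With a B statistic over 3 the calls were 10 with p53 siRNA, 2 with Pint ASO, 0 between the controls and 9 for the difference, each of 36 members. Of all 26038 probe sets, 1021, 812, 155 and 941 passed it in the same order. Between the controls, 4 members were called after a further quantile normalization, 5 with an intensity trend, 0 with only the compared groups in the fit and 6 with only probe sets of 1 symbol. The causes were not tested. On the siRNA arm, title numbers gave no positive correlation of deviations (-0.284, -0.181 and -0.0371). On the ASO arm the title numbers gave -0.0463 and -0.42. The description numbers, which equal the title numbers on the siRNA arm, gave 0.42 and 0.375 on the ASO arm. With 2 control ASO arrays their deviations are exact opposites, so the values of neither numbering can decide whether samples are paired there. A replicate block by title number gave 3 calls with Pint ASO, 0 between the controls and 15 for the difference, and a block by description number gave 1 between the controls. Over all probe sets the block lowered the calls with Pint ASO from 4985 to 1311 by title and 2604 by description number. The 2 control ASO arrays limit every value of that arm.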

Other observations

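A further list held other interferon-stimulated genes and none of the members. Of its 34 tested genes, 22 were higher and 3 lower with p53 siRNA (64.7% and 8.82%), and 2 were higher and 10 lower with Pint ASO (5.88% and 29.4%), beside 7.97%, 8.96%, 8.49% and 10.7% of all probe sets, with median log2 changes of 0.37 and -0.22. The most raised with p53 siRNA were Gbp5, a guanylate-binding protein of the inflammasome response (1.10, adjusted p = 3.82e-05), Ifi205, a DNA-binding protein of the p200 family (1.09, adjusted p = 0.000737), and Ifitm1, a membrane protein that hinders viral entry (1.01, adjusted p = 0.000138). Gbp5 lay at 5.59, 5.61 and 5.9 with control siRNA, under the filter value of 6, and at 6.72, 6.84 and 6.85 with p53 siRNA. Ifi30, a lysosomal reductase, and Pml, the organizer of the nuclear bodies that hold Sp100, fell with p53 siRNA, by 0.49 and by 0.37 on the log2 scale (adjusted p = 0.000219 and 0.000427). Pml was also called lower with Pint ASO.

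With Pint ASO the most lowered were Ifi27l2a, a mitochondrial protein (-0.86, adjusted p = 0.000261), Phf11d (-0.78, adjusted p = 0.00708) and Ifi203, of the p200 family (-0.72, adjusted p = 0.00381). Helz2, a helicase and nuclear receptor coactivator, rose with p53 siRNA (0.43), with Pint ASO (0.46) and in control ASO against control siRNA (0.29). Daxx, a histone chaperone, rose with both knockdowns (0.33 each). Ube2l6, the conjugating enzyme of ISG15, measured 11.41, 11.32 and 11.35 with control siRNA and 11.92, 11.99 and 12.01 with p53 siRNA, and 11.4 and 11.45 with control ASO and 10.89, 10.8 and 10.72 with Pint ASO. It rose by 0.62 with p53 siRNA (adjusted p = 5.46e-05) and fell by 0.62 with Pint ASO (adjusted p = 0.000164), and the difference of the effects was -1.24 (adjusted p = 1.61e-05). The difference was also called for Phf11d (-1.37), Ifitm1 (-1.34), Ifi30 (0.49), Tbk1 (0.40) and Irf5, a factor that induces interferon (0.40).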
